A study of Caenorhabditis elegans with 4 samples.

Results

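Isocitrate dehydrogenases and succinyl-CoA ligases are enzymes of the tricarboxylic acid (TCA) cycle and its side branches. The 10 C. elegans genes that encode their subunits were chosen by name: 6 isocitrate dehydrogenase genes (idh-1, idh-2, idha-1, idhb-1, idhg-1 and idhg-2) and 4 succinyl-CoA ligase genes (sucl-1, sucl-2, suca-1 and sucg-1). All 10 had a probe that passed the filter on dim signal, out of 12882 genes tested in all. The genes were read on 4 single-colour Agilent arrays of whole-body RNA from wild-type N2 worms grown at 20 °C on plates with food and collected on day 7 to 8 of adulthood. On a plate with no food, worms whose peak speed in the recording, the maximum velocity (MV), was under 0.22 mm/sec formed the low MV group and the others the high MV group, with 2 samples in each. No treatment, mutation or transgene separates the groups. The comparison asks which transcripts differ between worms of the same age and genotype that differ in physical ability. How many worms went into a sample, and whether the samples came from separate cultures, is not given in the sources used here, so p-values measure only the spread between these samples.

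Isocitrate dehydrogenases turn isocitrate into 2-oxoglutarate. The NAD-dependent enzyme works in the mitochondrial matrix as a step of the TCA cycle and, as known from mammals, is built from a catalytic alpha subunit with beta and gamma subunits. The NADP-dependent enzymes are separate proteins that make NADPH, with a cytosolic and a mitochondrial form. Succinyl-CoA ligase splits succinyl-CoA to succinate and makes a nucleoside triphosphate in the same step. An alpha subunit pairs with either of a pair of beta subunits, and the beta subunit sets whether ATP or GTP is made. Isocitrate can also leave the cycle through the glyoxylate bypass, which avoids both enzymes, and which in C. elegans is carried by the bifunctional enzyme encoded by icl-1.

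The arrays held 43803 non-control spots, with 84.58% to 87.71% well above background, and no spot was saturated. Both low MV arrays lay on a slide and scan of their own, and both high MV arrays on another, so slide, scan and physical ability cannot be told apart. The number of arrays, 4, limits the precision. Marker genes of body wall muscle (6 tested) had a median log2 fold change of -1.08, with 4 lower in low MV worms and none higher by the test described below. Their mean log2 signal was 10.32 and 10.34 on the high MV arrays and 9.68 and 9.07 on the low MV arrays. Of 4 epidermal markers tested, all of them cuticle collagen genes, 3 were higher and none lower. Their mean signals were 8.30 and 8.37 in high MV against 10.297 and 9.83 in low MV. The list held no other class of epidermal gene, so it does not speak for the epidermis at large. Of 8 germline and oocyte markers none passed. Of 6 intestinal markers 2 were lower and none higher, but by sign alone 3 lay on each side, with a median log2 fold change of 0.13. Of 6 neuronal markers 2 were higher and none lower, with a median of 0.45. For scale, 17% of all genes tested were called lower and 21.8% higher. Whether any of these marker counts exceeds those shares was not tested. Every gene of these lists passed the filter on dim signal but the epidermal bli-1. Fewer cells of a type and less RNA per cell cannot be told apart in such samples, and the part of these shifts in the results below was not tested.

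Each signal below is the log2 of the background-subtracted intensity, quantile normalized so that the 4 arrays share the same distribution, and read from the brightest probe of the gene unless stated. Differences are low MV minus high MV. A gene was called higher or lower past a Benjamini-Hochberg adjusted p of 0.05 (limma, over all genes tested) and an absolute log2 fold change of 0.58, which is 1.5-fold. Levels are compared between groups for a probe, never between probes. No probe sequences were available, so binding of a probe to the transcript of a paralog was not tested. Such binding would matter most for a dim probe beside a bright paralog, as with idhg-2 and idhg-1.

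Of the 10 genes, 2 were called lower in low MV worms, idhg-2 and sucg-1, and 3 were called higher, idha-1, idhb-1 and sucl-1. Among all genes tested, 17% were called lower and 21.8% higher, so the number of calls among the 10 is near the background. Paralogs are set side by side below, and whether they differ more than other pairs of genes was not tested. A further 2 genes, idh-2 and sucl-2, passed the adjusted p but not the 1.5-fold limit. At any fold, 29.2% of all genes passed the adjusted p as lower and 30.8% as higher. The remaining idh-1, idhg-1 and suca-1 did not pass. Over the 10 genes the median log2 fold change was 0.15, and over all genes it was 0.01. In 6 of the 10 genes both low MV arrays exceeded both high MV arrays and in 3 they were both below, against 42.2% and 41.2% of all genes. Taken in either direction, the 5 calls stand beside 38.8% of all genes called and the 9 genes without overlap beside 83.5%.

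**Figure D1:**
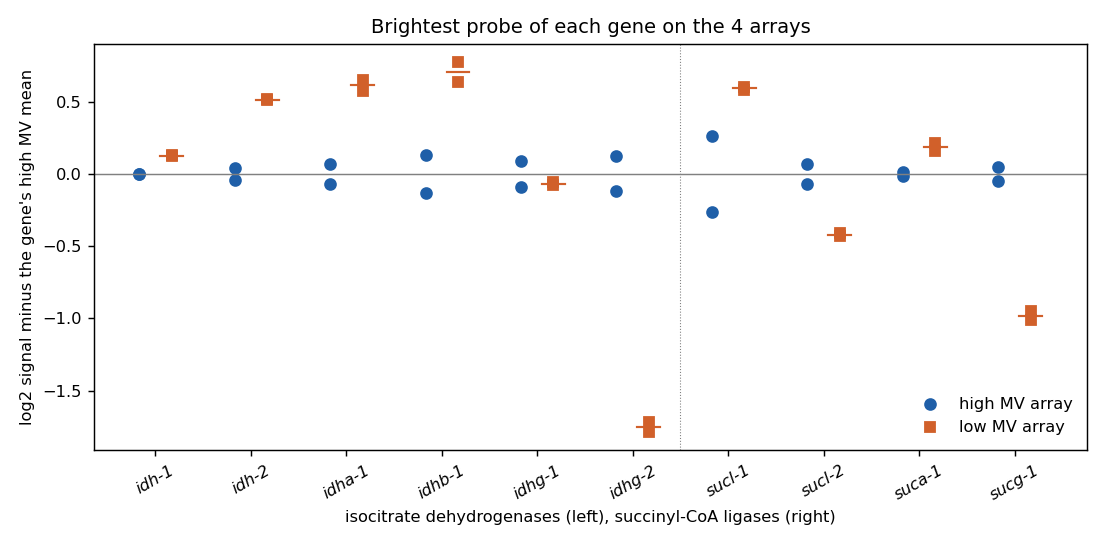
Log2 signal of the brightest probe of each gene on the 4 arrays, drawn as the difference from that gene's high MV mean (circles, high MV arrays; squares, low MV arrays; short lines, low MV means). The low MV squares of idhg-2 and sucg-1 lie farthest below the circles, at -1.75 and -0.98, those of idha-1, idhb-1 and sucl-1 lie highest, and only idhg-1 overlaps.

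The 2 genes for a gamma subunit of the NAD-dependent enzyme differed in their change. The gene idhg-2 (C30F12.7) had log2 signals of 9.22 and 9.46 on the high MV arrays and 7.63 and 7.56 on the low MV arrays. Both low MV arrays lay far below both high MV arrays, by a distance many times the gap between arrays of a group. The log2 fold change was -1.75 (limma, SE 0.12, adjusted p = 0.000795), a level 3.36-fold lower in low MV worms. Of the 12882 genes tested, 368 or 2.86% fell at least as far. The paper named idhg-2 and sucg-1 from these same arrays, so their falls are not independent of the reason they are known.

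The paralog idhg-1 (F35G12.2) had log2 signals of 14.46 and 14.64 in high MV worms and 14.47 and 14.49 in low MV worms. The groups overlapped. Its log2 fold change was -0.07 (limma, SE 0.10, adjusted p = 0.599), with a 95% interval from -0.33 to 0.20. Its 3 probes lay between -0.10 and -0.07, so under quantile normalization no probe of idhg-1 came near the fall of idhg-2. That flat reading depended on the scaling. With the arrays scaled to their 75th percentile, idhg-1 was at -0.33 (limma, adjusted p = 0.0329). With scaling by the spike-in probes it was at -0.70 (limma, adjusted p = 0.137). Before any scaling its brightest spot read 24169 and 31163 units in high MV worms and 20671 and 19092 in low MV worms.

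Before any scaling between arrays, the idhg-2 spot read 538.5 and 763.4 intensity units in high MV worms and 224.2 and 183.8 in low MV worms, against a local background of 18 to 25 units at all spots of the 10 genes. The spot was well above background on all 4 arrays, as was every probe of the 10 genes. It is also the dimmest of these spots on the low MV arrays, and the size of its fall depended on how dim signal was treated. Under normexp background correction with an offset of 50, which pulls dim values together by construction, the log2 fold change was -0.81, and it was -1.52 when the arrays were scaled to their 75th percentile. It was called lower under all 17 alternatives run, some of which, such as another choice among the probes of a gene, cannot change a gene with 1 probe.

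The alpha and beta subunits of the same enzyme went the other way. For idha-1 (F43G9.1), which encodes the alpha subunit, the log2 signals were 13.58 and 13.44 in high MV worms and 14.16 and 14.08 in low MV worms. The groups did not overlap, with low MV above, and the log2 fold change was 0.61 (limma, SE 0.10, adjusted p = 0.00552). For idhb-1 (C37E2.1), which encodes the beta subunit, they were 11.17 and 10.90 against 11.67 and 11.80. Again the groups did not overlap, and the log2 fold change was 0.70 (limma, SE 0.13, adjusted p = 0.00725), a level 1.63-fold higher in low MV worms. Without high MV replicate 2 both fell just short of 1.5-fold, at 0.54 for idha-1 and 0.57 for idhb-1, and idha-1 did so as well without low MV replicate 1, at 0.57.

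Both genes carry several probes, and the brightest gave the largest difference in each. The 4 probes of idha-1 had log2 fold changes of 0.32 to 0.61 and the 5 probes of idhb-1 of 0.36 to 0.70. All 9 probes were higher in low MV worms past an adjusted p of 0.05 in a limma fit over the 24750 present probes, whereas only the brightest of each passed 1.5-fold. Over all present probes, 28.7% passed that p as higher and 29.1% as lower, and with the 1.5-fold limit 20.3% and 17.9% did. With the probes of a gene averaged, idha-1 and idhb-1 no longer passed 1.5-fold, at 0.46 each. The direction for these genes was thus shared by every probe under quantile normalization, and the 1.5-fold call rested on 1 probe each.

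**Figure D2:**
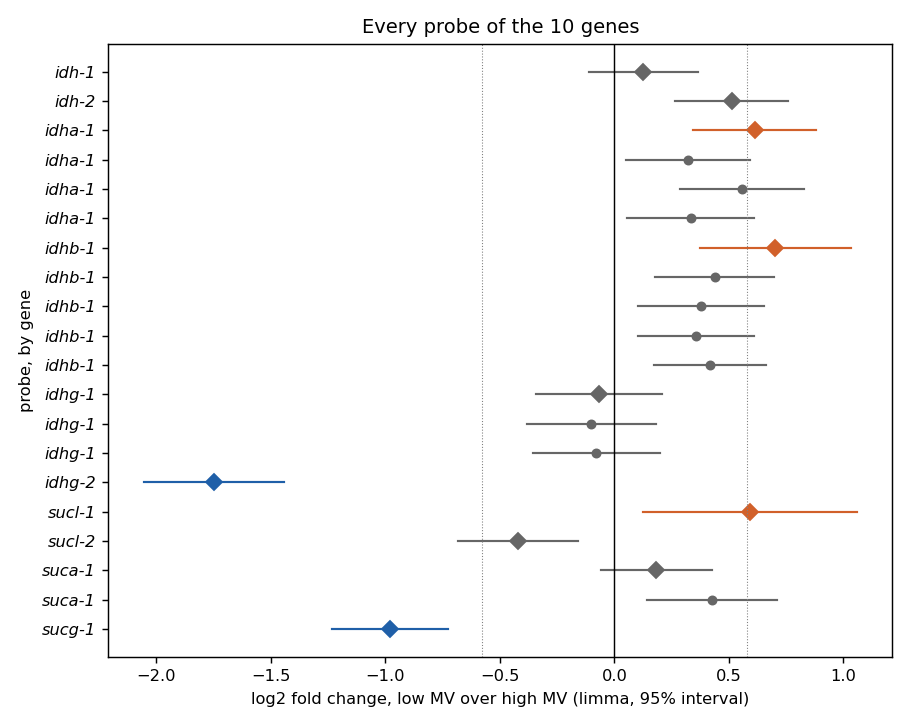
Log2 fold change, low MV over high MV, of each of the 20 probes with its 95% interval from the limma fit over all present probes (diamonds, brightest probe of a gene; dotted lines, the 1.5-fold limit; blue called lower, orange called higher, grey not called). The probes of idha-1 and idhb-1 all lie right of 0, those of idhg-1 lie beside 0, and the single probes of idhg-2 and sucg-1 lie left of the limit.

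Neither gene of the NADP-dependent enzymes was called. The cytosolic idh-1 (F59B8.2) had a log2 signal of 15.81 on both high MV arrays, where its spot took the same rank and quantile normalization therefore gave it the same value, and 15.93 and 15.94 on the low MV arrays. The log2 fold change was 0.13 (limma, SE 0.09, adjusted p = 0.264), with a 95% interval from -0.10 to 0.35. For the mitochondrial idh-2 (C34F6.8) the signals were 11.24 and 11.16 in high MV worms and 11.72 and 11.71 in low MV worms. The groups did not overlap, and the log2 fold change of 0.51 passed the adjusted p (limma, SE 0.09, adjusted p = 0.00699) and stayed under 1.5-fold. Each gene has a single probe, so no second reading within the array was available.

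Among the succinyl-CoA ligase genes, the beta subunits differed from each other. The gene sucg-1 (C50F7.4) encodes the beta subunit of the GTP-forming enzyme. Its log2 signals were 13.12 and 13.22 in high MV worms and 12.17 and 12.22 in low MV worms. The groups were clearly apart, and the log2 fold change was -0.98 (limma, SE 0.10, adjusted p = 0.00141), a level 1.97-fold lower in low MV worms, and 7.77% of all genes fell at least as far. The change hardly depended on the background correction, at -1.03 under normexp. Before scaling its spot read 9424 and 11872 units in high MV worms against 4337 and 4066 in low MV worms.

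The gene suca-1 (F47B10.1) encodes the beta subunit of the ATP-forming enzyme. Its log2 signals were 13.23 and 13.26 in high MV worms and 13.46 and 13.40 in low MV worms. The low MV arrays lay slightly above, and the log2 fold change of 0.18 did not pass (limma, SE 0.09, adjusted p = 0.135, 95% interval -0.05 to 0.41). Its dimmer probe was at 0.43 (limma over probes, SE 0.11, adjusted p = 0.0232). The brighter probe passed the adjusted p as higher under normexp, at 0.33 (limma, adjusted p = 0.0087). It also did on the deposited log2 table, at 0.34 (limma, adjusted p = 0.022). Its sign turned under 75th percentile scaling, to -0.10, and under spike-in scaling, to -0.47. The direction depended on the processing, so none can be given for suca-1. Neither probe came near the fall of sucg-1.

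The 2 alpha subunit genes also moved apart. For sucl-1 (C05G5.4) the log2 signals were 12.90 and 12.37 in high MV worms and 13.22 and 13.24 in low MV worms. The low MV arrays were the higher, but the high MV arrays were farther from each other than in any other of the 10 genes (SD 0.37). The log2 fold change of 0.59 passed narrowly (limma, SE 0.19, adjusted p = 0.0417). Without high MV replicate 2 it was 0.33 and not called, and without high MV replicate 1 it was 0.85. It was also lost without low MV replicate 1 or 2, at 0.60 and 0.58 with adjusted p of 0.0731 and 0.0772 by limma. For sucl-2 (F23H11.3) the signals were 13.92 and 14.06 against 13.56 and 13.58, both lower in low MV worms. Its log2 fold change of -0.42 passed the adjusted p (limma, SE 0.10, adjusted p = 0.0164) but not 1.5-fold. It passed both when the arrays were scaled without quantile normalization, at -0.72 by the 75th percentile and -1.09 by the spike-in probes.

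Ratios of paralogs within an array do not change when an array is rescaled by a constant, so they were compared for 4 pairs. The log2 ratio of idhg-2 to idhg-1 was -5.24 and -5.17 on the high MV arrays and -6.84 and -6.93 on the low MV arrays. The ratio of sucg-1 to suca-1 was -0.11 and -0.04 against -1.29 and -1.18. The ratio of sucl-2 to sucl-1 was 1.02 and 1.69 against 0.34 and 0.34. In these 3 pairs the ratio was lower on both low MV arrays than on both high MV arrays. The ratio of idh-2 to idh-1 was higher in low MV worms instead, at -4.57 and -4.65 against -4.21 and -4.23. Such separation is common on these arrays, as 83.5% of single genes had no overlap between the groups. No share was computed for other pairs of genes.

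The differences between the group means were -1.68 for the gamma subunits, -1.16 for the beta subunits, -1.01 for the alpha subunits and 0.39 for the NADP enzymes. For scale, the log2 fold changes of all single genes had an SD of 0.83. With 2 arrays against 2, an exact two-sided permutation test cannot go below p = 0.33, and it gave that smallest p for each pair, also after adjustment over the 4 pairs. In each pair the arrays of a group lay closer together than the group means. The 3 probe combinations of the gamma subunits gave -1.68 to -1.65 and the 2 of the beta subunits -1.41 to -1.16, each without overlap. On the unscaled signal, where quantile normalization has not reshaped the dim end, the differences were -1.19, -1.10, -1.06 and 0.39 in the same order. Under normexp the gamma pair was at -0.72, smaller than the beta pair at -1.36 and the alpha pair at -1.05, and on the deposited table the gamma and beta pairs were at -1.40 and -1.42, so the order of the pairs depended on the processing.

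**Figure D3:**
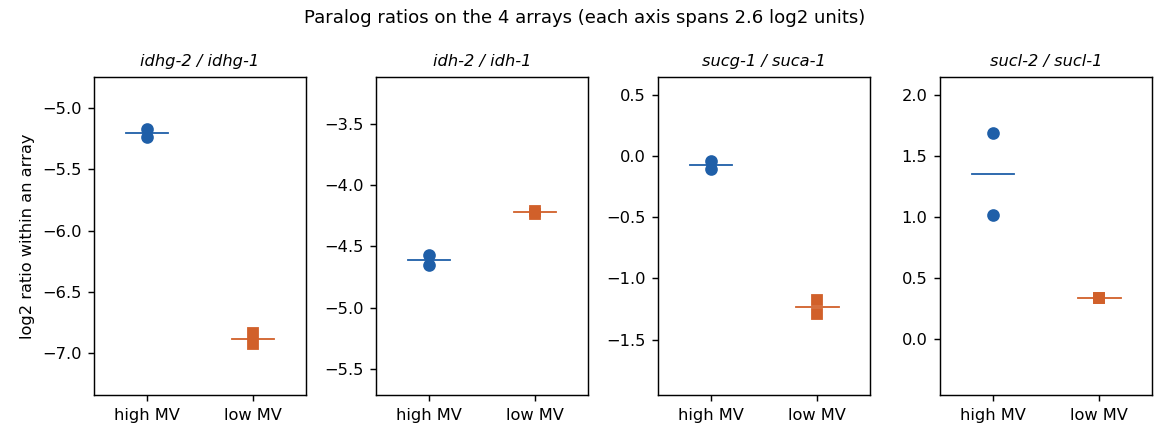
Log2 ratio of paralogs within an array, by the brightest probe of each, for the high MV (circles) and low MV (squares) arrays, with group means as lines. The axes have equal spans and different origins, since the level of a ratio between 2 probes has no meaning of its own. The low MV ratios lie lower for idhg-2 to idhg-1, sucg-1 to suca-1 and sucl-2 to sucl-1, and higher for idh-2 to idh-1.

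The falls and the rises were not equally firm. Under spike-in scaling, which sets each array to the mean of 8 added control transcripts, the typical gene shifted down, from a median log2 fold change of 0.01 to -0.38, and calls over all genes went from 2191 lower and 2808 higher to 2896 and 952. The genes idhg-2, sucg-1 and sucl-2 were then called lower, at -1.90, -1.57 and -1.09. None of the 10 was called higher by limma or had an unadjusted p under 0.05 as higher, with idha-1 at -0.059, sucl-1 at -0.031, idhb-1 at 0.26 and idh-2 at 0.06. The genes idh-1 (-0.32), idh-2, idha-1, idhb-1 and sucl-1 lay above that median. A median splits all genes evenly, so this does not set them apart. Under 75th percentile scaling idhb-1 was called higher at 0.63, while idha-1 at 0.31 and sucl-1 at 0.34 were not called. In background-subtracted intensity before scaling, idhb-1 read 2228 and 2200 units in high MV worms and 3134 and 3109 in low MV worms, whereas 2 of the 4 idha-1 probes were dimmer in low MV worms by the ratio of group means.

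**Figure D4:**
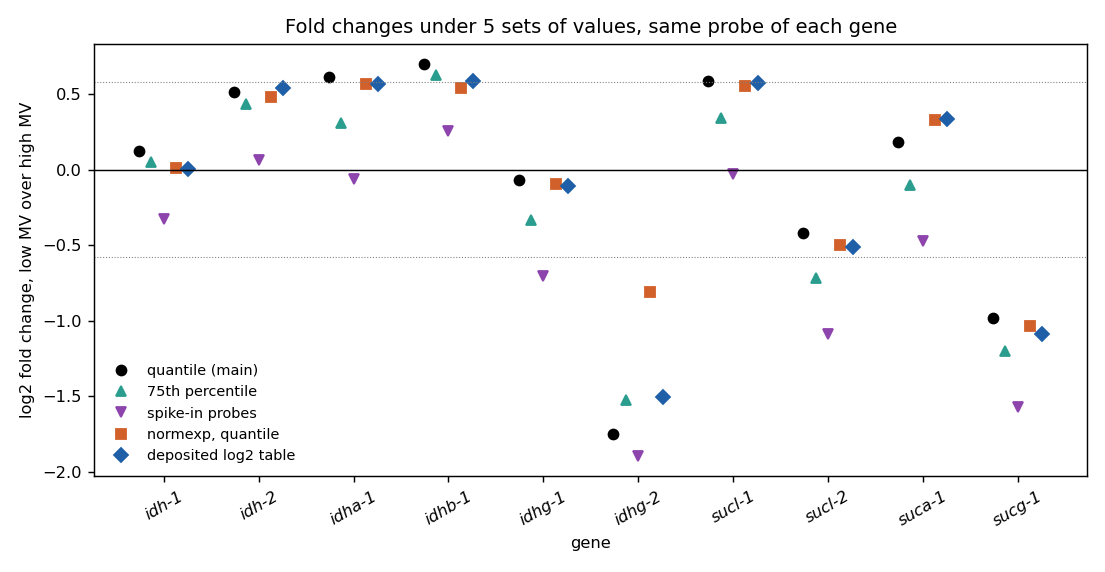
Log2 fold change, low MV over high MV, of the same probe of each gene under quantile normalization, 75th percentile scaling, spike-in scaling, normexp followed by quantile normalization, and the deposited log2 table (dotted lines, the 1.5-fold limit). The points of idhg-2 and sucg-1 all lie below the lower limit, from -1.90 to -0.81 and from -1.57 to -0.98, whereas those of idha-1, idhb-1 and sucl-1 spread down to -0.059, 0.26 and -0.031.

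The enzymes around these steps were read from 5 lists of genes, 31 in all, of which 30 were tested and dlat-1 was not analysed here. Of the 12 other subunits and enzymes of the TCA cycle, none was called in either direction by limma on the brightest probe. Their log2 fold changes lay between -0.30 and 0.48, with a median of 0.24. No share of all genes was computed at an unadjusted p, so counts at it have no background here. At an unadjusted p under 0.05 and any fold, 3 were higher and none lower by limma, and none in either direction by the methods' t-test. Here and below, that is a plain Student t-test. It leaves out the permutations and the median ratio test that the paper combined with it, so it does not repeat the paper's calls. The citrate synthase gene cts-1, at 0.28, was called higher under normexp and on the deposited table and turned to -0.17 under spike-in scaling. The succinate dehydrogenase gene sdha-2, at -0.30, was called lower under spike-in scaling alone, at -0.92. The probes of the paralog sdha-1 disagreed, with the brightest at 0.29 and the probe of largest change at -1.06, which was called lower (limma, adjusted p = 0.00137). With its probes averaged it was at -0.31 and not called, so no direction can be given here for sdha-1. The paper, from these same arrays, lists sdha-1 among its genes lower in worms of low physical ability. The sign of the median over the 12 genes depended on the scaling, at -0.03 under 75th percentile scaling and -0.40 under spike-in scaling. Of 6 genes that bring pyruvate into the cycle or regulate its entry, none was called by limma, with a median of 0.06. At an unadjusted p under 0.05, 1 gene was lower by limma and by the methods' t-test. This gene was pdhk-2, a pyruvate dehydrogenase kinase, at -0.34, and it was called lower under spike-in scaling at -0.94.

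Of the 30 tested genes of the lists, 2 were called higher and 2 lower by the brightest probe, against 21.8% and 17% of all genes. These calls lay in the lists outside the cycle and pyruvate entry, and their number does not exceed the background. The largest was aco-1, which encodes the cytosolic aconitase that interconverts citrate and isocitrate, at 1.16 on the log2 scale (limma, SE 0.13, adjusted p = 0.00200). It was also called under 75th percentile scaling at 0.89, and not under spike-in scaling at 0.52. The mitochondrial aconitase gene aco-2 was at -0.10 by its brightest probe (limma, adjusted p = 0.64), turned to 0.039 under normexp, and was called lower by its probe of largest change, at -0.60 (limma, adjusted p = 0.0292). For icl-1, the glyoxylate bypass enzyme, the low MV arrays lay at 14.37 and 13.32 and the high MV mean at 13.18, and the log2 fold change of 0.67 did not pass (limma, SE 0.37, adjusted p = 0.168). This difference is within the spread between the low MV arrays. It was called higher without low MV replicate 2, at 1.19, and with a replicate block (limma, adjusted p = 0.0299).

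In the list of other NADPH sources, 1 of 4 genes was called. This was gspd-1, which encodes glucose-6-phosphate dehydrogenase, the entry to the pentose phosphate pathway, at -0.64 (limma, SE 0.10, adjusted p = 0.00398). In the list for supply and use of succinyl-CoA, 1 of 5 genes was called in each direction. The gene mce-1, which encodes methylmalonyl-CoA epimerase of the propionate route, was at -0.92 (limma, SE 0.10, adjusted p = 0.00191). The gene pccb-1, which encodes the propionyl-CoA carboxylase beta subunit of the same route, was at 0.65 (limma, SE 0.11, adjusted p = 0.00526). Under spike-in scaling mce-1 and gspd-1 stayed called, at -1.31 and -1.26, and pccb-1 was at 0.03. The gene pccb-1 was not called under 75th percentile scaling, normexp or the deposited table either, at 0.40, 0.52 and 0.54. In the same list C05C10.3, at -0.32, passed the adjusted p but not 1.5-fold (limma, SE 0.09, adjusted p = 0.0321). It was called lower under 75th percentile scaling at -0.62 and spike-in scaling at -0.99. Under both, 2 genes of this list were called lower and none higher.

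**Figure D5:**
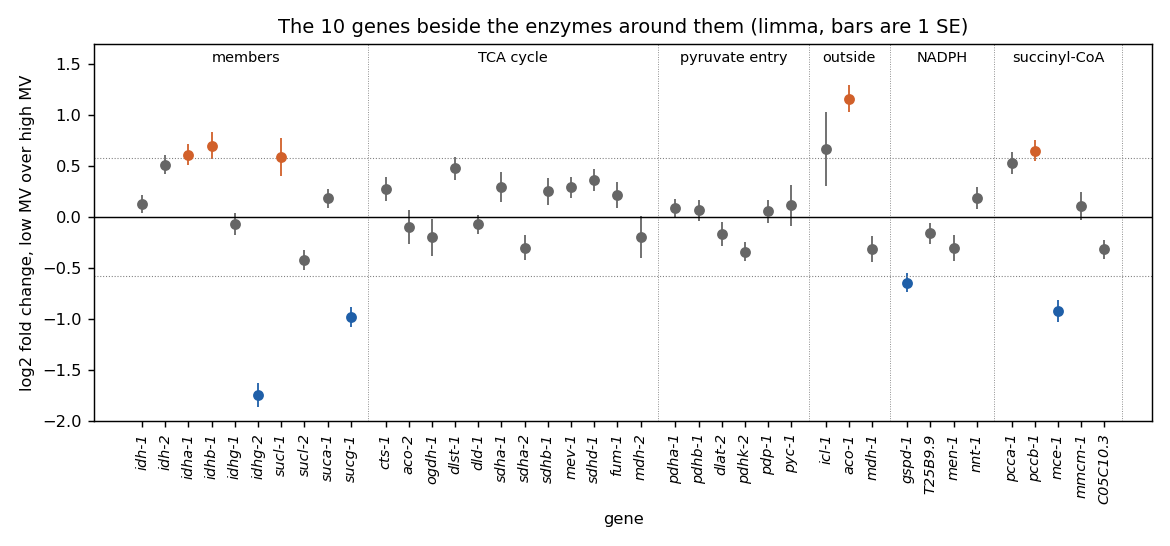
Log2 fold change, low MV over high MV, with 1 SE from limma, of the 10 genes (left) and of the 30 tested genes of the 5 lists around them (orange called higher, blue called lower, grey not called; dotted lines, the 1.5-fold limit). By the brightest probe, no gene of the TCA cycle or pyruvate lists lies beyond the limit, while aco-1, pccb-1, gspd-1 and mce-1 do, and idhg-2 lies lowest of all genes shown.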

How the data were processed

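Whole-body RNA from 2 samples of each MV group was labelled with Cy3 and read on 4 Agilent arrays. For every spot the authors deposited an intensity from which Feature Extraction 11.5.1.1 had subtracted the background, the median brightness of spot and local background, and flags. The authors also deposited a table of log2 values. It equals the quantile-normalized log2 median brightness of all 45220 spots to within 5e-09. Flags and spot types, deposited as other codes, selected the spots used.

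Following the methods of the paper, log2 intensities were quantile normalized between arrays, without control spots. Of 43603 probes, 62 with an outlier flag were left out. A probe was present above the point where 2 fitted Gaussian densities meet (6.65 to 6.67, mclust 6.1.1) on both arrays of at least 1 group, and the brightest present probe stood for its gene. Names were matched through the RefSeq table of WBcel235, used for names only, since the array design follows an older assembly. Of 28477 names, 5124 gave no gene. The group difference was fitted by lmFit and eBayes of limma 3.58.1 (R 4.3.3), a step tested on simulated data. The simulation held few changed spots and no slide effect, so it checked the code and not the error rates in these data. Tables and figures used Python 3.11.15, pandas 2.3.3, numpy 2.4.6 and matplotlib 3.10.9. No slide block could be fitted, because each slide holds 1 group. The alternatives are named with their effect in the closing section. The normexp alternative used the median brightness. The 10 genes, the lists and the tests were chosen with earlier results of these data known. The text names all 10 genes, every list gene past the threshold and icl-1. The genes aco-2, cts-1, sdha-1, sdha-2, pdhk-2 and C05C10.3 were added after their values were seen.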

Additional observations from a re-analysis of the deposited data

How the results depend on the processing

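The falls of idhg-2 and sucg-1 were called under every alternative but the 2-fold threshold, where sucg-1 was lost and 1 of the 10 genes remained lower and none higher. The number of the 10 genes called higher, 3 in the comparison as reported, was 1 under 75th percentile scaling (idhb-1), on the deposited log2 table (idhb-1) and with the probes averaged (sucl-1). By limma it was 0 under spike-in scaling and under normexp, and 0 by the methods' t-test after adjustment. At an unadjusted p under 0.05 and any fold, 0, 5 and 5 genes were higher under these 3, and 4 under the 2-fold threshold. No share of all genes was computed at that rule, so these counts are not read as a result about the 10 genes. For scale, 30.8% of all genes passed the adjusted p as higher at any fold in the comparison as reported. With each array left out in turn it ranged from 0 to 3, the 0 being without high MV replicate 2 and the 1 without low MV replicate 1. Probes called higher were 1 under 75th percentile scaling, 0 under spike-in scaling, the adjusted t-test and 2-fold, and 0 to 4 with arrays left out. Probes called lower were 1 under the adjusted t-test and 2-fold. Signs turned for suca-1 under 75th percentile scaling (-0.10), for idh-1 (-0.32), idha-1 (-0.059), sucl-1 (-0.031) and suca-1 (-0.47) under spike-in scaling, and for idhg-1 without high MV replicate 2, where the range with arrays left out ran from -0.16 to 0.021. Over all genes, 952 were higher under spike-in scaling, 1530 higher and 1301 lower under normexp, 4250 higher with the filter on spots well above background, which tests 18586 genes, 801 and 762 by the adjusted t-test, and 1284 and 923 at 2-fold. With arrays left out these ran from 2742 to 2886 and from 2055 to 2355. In the 5 lists, 5 were lower and 0 higher under spike-in scaling, 5 lower with the probe of largest change, 1 higher under 75th percentile scaling, with probes averaged and at 2-fold, where 0 were lower, 0 in either direction by the adjusted t-test, and 1 to 3 higher and 2 lower with arrays left out. The differences of the 4 paralog ratios kept their sign throughout, and with arrays left out ran from -1.73 to -1.64 (idhg-2), 0.35 to 0.43 (idh-2), -1.22 to -1.11 (sucg-1) and -1.34 to -0.68 (sucl-2). The cause of these changes was not tested. Whether arrays with the same replicate number were paired is not given. Their deviations correlated at -0.041 over genes, but with 2 arrays per group this is a single contrast and cannot show a lack of pairing. With a replicate block, 2 of the 10 genes were lower and 3 higher, as without it, and of the lists' genes only icl-1 changed its call. With 1 array left out, its group's lone array is taken to vary like the other group.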
